A study of Homo sapiens with 96 samples.

Results

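The genes described here make catecholamines, the family of transmitters that holds dopamine, noradrenaline and adrenaline, or supply, store or control that synthesis. They are TH, DDC, DBH, SLC18A1, SLC18A2, PHOX2A, GCH1, PTS and QDPR, 9 of the 58434 genes in the deposited count table, chosen by symbol and matched through their Ensembl identifiers. Messenger RNA was measured in 96 libraries, 8 in each of 12 groups, all from cells derived from the human embryonic stem cell line H9. Neural progenitor cells (NPC, day 0) were 1 group, and unexposed neuron-astrocyte co-cultures on day 10 (control) were another. The other 10 groups were day 10 co-cultures treated with 1 of 5 compounds at concentrations labelled IC5 and IC20/100, for which the labels used here give no numerical value. Valproic acid, an antiepileptic drug, and acrylamide, an industrial and food-borne neurotoxicant, were added in medium. Chlorpyrifos (an organophosphate insecticide), methyl mercury and fluoxetine (a serotonin reuptake inhibitor) were added in DMSO at a final 0.25%. The labels used here leave it unsaid whether the unexposed controls also received DMSO, so for those compounds a change against the controls cannot be told apart from a change due to the solvent. The differentiation medium of all day 10 groups held 20 ng/mL GDNF, 20 ng/mL BDNF, 1 µM dibutyryl cyclic AMP and 200 µM ascorbic acid.

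Tyrosine hydroxylase (TH) turns tyrosine into L-DOPA and is the rate-limiting enzyme of the pathway. Aromatic L-amino acid decarboxylase (DDC) makes dopamine from L-DOPA, and dopamine beta-hydroxylase (DBH), which uses ascorbate, makes noradrenaline from dopamine inside vesicles. The vesicular monoamine transporters SLC18A1 and SLC18A2 load the vesicles. PHOX2A is a homeodomain transcription factor of noradrenergic and other autonomic and hindbrain neurons, and DBH is among its known targets. TH works only with tetrahydrobiopterin, whose synthesis is begun by GCH1 and continued by PTS, and which QDPR regenerates after use.

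Per the labels, 1 experiment supplied all 8 libraries of a group as technical replicates, and every p-value therefore rests on the spread among them alone. The libraries were sequenced in 6 runs of 16 and held 9.49 M to 29.6 M recovered reads (median 18.9 M). Levels are deposited normalized read counts, given as the mean ± SD over 8 libraries or as the lowest, median and highest library. Differences are on the scale of log2(value + 2), ± SE, from limma with the sequencing run as a term, and a gene was called where the Benjamini-Hochberg adjusted p over all tested genes was under 0.05. Neuronal genes were high in the control co-cultures (TUBB3 21264, MAP2 17969) and also in NPC (17449 and 16964). The 7 astrocyte markers together summed to 4436 to 5724 in control. Most of that sum came from the glutamate transporters SLC1A2 (2850 ± 344) and SLC1A3 (1941 ± 198), which progenitors also held (2935 and 872), while GJA1 averaged 134, GFAP 25.7, S100B 19.4, ALDH1L1 18.9 and AQP4 5.41. In such bulk RNA, fewer cells of a type and less RNA per cell cannot be told apart. Methyl mercury IC20/100 replicate 8 stood apart from the other libraries of its group for 4 of the 9 genes, and results that rest on it are also given without it.

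On the reference annotation (GRCh38, GENCODE 29) TH, ENSG00000180176.14, lies on the minus strand of chromosome 11 from 2163929 to 2171877. DDC, ENSG00000132437.18, lies on chromosome 7 from 50458436 to 50565457, and DBH, ENSG00000123454.11, on chromosome 9 from 133635348 to 133659344. PHOX2A, ENSG00000165462.5, lies on chromosome 11 from 72239077 to 72245664. GCH1, ENSG00000131979.19, lies on chromosome 14 from 54842008 to 54902852, PTS, ENSG00000150787.8, on chromosome 11 from 112226365 to 112269955, and QDPR, ENSG00000151552.12, on chromosome 4 from 17460261 to 17512234. SLC18A1, ENSG00000036565.15, lies on chromosome 8 from 20144855 to 20183206, and SLC18A2, ENSG00000165646.13, on chromosome 10 from 117241073 to 117279430. SLC18A2 shares 2157 bases of exon with PDZD8 on the opposite strand, which averaged 1431 normalized reads over all libraries, so SLC18A2 is uncertain. DBH shares 118 exonic bases with DBH-AS1, also on the opposite strand. The library kit keeps strand, but the sources used here do not say whether the counting used it.

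Per kilobase of exon, the control co-cultures held most TH, at a mean normalized read count of 252. QDPR followed at 160.0 and PTS at 151 per kilobase. DDC held 38.2, PHOX2A 24.2, GCH1 4.95 and DBH 2.97 per kilobase, and the transporters SLC18A2 and SLC18A1 held 1.73 and 0.728. By this measure the first enzyme was the highest of the 9 genes in unexposed co-cultures, and the noradrenaline-making enzyme and the transporters were among the lowest. The length is that of all annotated exons of a gene merged, not of the transcript present, so an order per transcript could differ. In NPC the order was led by QDPR at 183, PTS at 131 and TH at 112 per kilobase.

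Members of the pathway moved in both directions during differentiation. TH and DDC, the enzymes that lead to dopamine, rose, while PHOX2A and GCH1 fell. All 7 members that passed the filter on low values were called, 3 higher and 4 lower in controls than in NPC, beside 70.7% of the 18063 genes tested, 33.9% higher and 36.8% lower. SLC18A1 and SLC18A2 did not pass that filter. DBH passed it through NPC (lowest library 19.7, control median 9.86), so its call is not read as support.

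TH held 325, 352 and 449 normalized reads (lowest, median and highest) in NPC and 713, 812 and 931 in control. The groups did not overlap, and the mean rose 2.26-fold, from 362 ± 40.9 to 818 ± 73.2. The log2 difference was 1.15 ± 0.06 (adjusted p = 4.51e-09 in limma), with the same sign in 6 of 6 runs.

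DDC held 23.9, 49.0 and 73.2 normalized reads in NPC and 88.8, 119.6 and 151 in control, again with no overlap. Its log2 difference was 1.23 ± 0.19 (adjusted p = 8.24e-05 in limma). DBH went the other way, from 19.7, 27.5 and 52.0 in NPC to 5.48, 9.86 and 26.7 in control. The groups overlapped through 1 high control library, replicate 5. The log2 difference was -1.38 ± 0.29, and its call is not read as support. DBH-AS1, the antisense transcript that overlaps DBH, rose over the same step, by 1.42 ± 0.13.

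PHOX2A fell from 63.6 ± 7.59 to 43.2 ± 9.09 normalized reads (log2 difference -0.59 ± 0.13), and its groups overlapped. GCH1, the first enzyme of tetrahydrobiopterin synthesis, held 37.1, 48.4 and 84.8 in NPC and 8.40, 15.8 and 19.5 in control, with no overlap. It fell 3.55-fold, by 1.66 ± 0.21 on the log2 scale (adjusted p = 1.89e-05 in limma). The later cofactor enzymes moved little: PTS rose by 0.24 ± 0.05 and QDPR fell by 0.20 ± 0.06. The QDPR call was lost when reads were scaled to library totals (adjusted p = 0.0905 in limma).

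**Figure D1:**
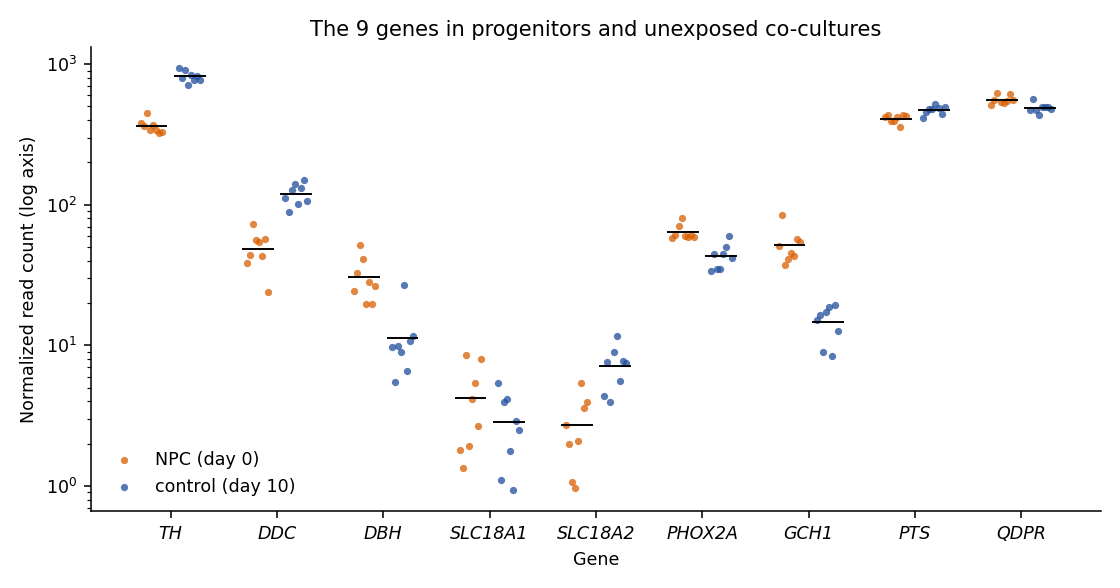
Normalized read count (log axis) of each of the 9 genes in 8 NPC libraries (orange) and 8 control libraries (blue), with the group mean as a bar. TH and DDC are higher and GCH1 lower in control with no overlap, and SLC18A1 and SLC18A2 stay below 12 in every library.

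Around these genes, 4 of 6 tested tetrahydrobiopterin partners fell during differentiation and 0 rose (limma; 5 of the 6 had an unadjusted p under 0.05), with a median log2 difference of -0.67 beside -0.01 over all genes. Of all genes 70.7% were called, 36.8% lower, so 4 of 6 called is near the overall share. SPR, sepiapterin reductase, which completes tetrahydrobiopterin synthesis, fell from 65.4 ± 4.85 to 19.2 ± 3.45 normalized reads (-1.68 ± 0.12). Of 7 tested genes for catecholamine breakdown, catecholamine transport and precursor uptake, 4 rose and 1 fell (median log2 difference 0.92), where 33.9% of all genes rose and 36.8% fell. SLC7A5 and SLC3A2, the subunits of a carrier of large neutral amino acids, were 2 of the 4 that rose. The monoamine-degrading oxidases MAOA and MAOB rose by 1.84 ± 0.28 and 0.92 ± 0.16.

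Of the noradrenergic and sympathetic regulators 6 of 11 could be tested, and 2 rose and 2 fell, no larger a share than the 70.7% of all genes called. GATA2, which acts in sympathetic and hindbrain neurons, fell from 57.3 ± 14.2 to 7.79 ± 4.21 normalized reads (-2.68 ± 0.24). It passed the filter on low values through NPC (lowest library 43.1, control median 6.67), so its call is not read as support. HAND1, HAND2 and TLX2, further sympathetic factors, averaged under 1 in both groups. Of the dopaminergic list 11 of 17 genes could be tested, and 2 rose and 4 fell, again below the 70.7% of all genes. LMX1A, a midbrain and roof plate factor, rose by 2.28 ± 0.06, and EN2, a midbrain-hindbrain factor, fell by 2.46 ± 0.04. NR4A2, an activator of TH in midbrain neurons, held 37.1 and 38.8 normalized reads and was not called (0.09 ± 0.17), while PITX3, FOXA2 and ALDH1A1 averaged under 1 in both groups.

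TH was lower than in the controls in 7 of 10 exposed groups and higher in 0 of 10 (limma, edgeR and DESeq2). The mean fell by 37.0% at fluoxetine IC5 to 62.8% at acrylamide IC5. In 1 fit of all 88 day 10 libraries, TH was lower at both concentrations of chlorpyrifos, fluoxetine and methyl mercury and at acrylamide IC5. It was not called at acrylamide IC20/100 or at either concentration of valproic acid.

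TH was lowest at acrylamide IC5, at 285, 304 and 331 normalized reads (lowest, median and highest), beside 713, 812 and 931 in control. Every exposed library was below every control library, and the log2 difference was -1.41 ± 0.09 (adjusted p = 6.11e-23 in limma). At methyl mercury IC5 TH held 230.3, 339 and 389, with a log2 difference of -1.28 ± 0.09 (adjusted p = 2.75e-19 in limma). Here too the exposed libraries all lay below the controls.

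Chlorpyrifos IC5 libraries held 339, 423 and 660 normalized reads of TH and chlorpyrifos IC20/100 libraries 354, 411 and 472. Neither group overlapped the controls, and the log2 differences were -0.89 ± 0.09 and -1.001 ± 0.09 (adjusted p = 5.49e-13 and 9.39e-15 in limma). Fluoxetine IC5 libraries held 489, 512 and 550.1, the narrowest of the lowered groups beside acrylamide IC5, and fluoxetine IC20/100 libraries 368, 434 and 490.5. These also lay below all controls, with log2 differences of -0.65 ± 0.09 and -0.93 ± 0.09 (adjusted p = 4.56e-08 and 1.42e-13 in limma).

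Methyl mercury IC20/100 was the exception to the gap. Its libraries held 355, 420.0 and 755 normalized reads of TH, and replicate 8, at 755, lay within the control range while the other 7 reached at most 474. The log2 difference was -0.85 ± 0.09 with all libraries (adjusted p = 1.16e-11 in limma) and -0.95 without replicate 8. In each of the 7 called groups the sign was the same in 6 of 6 runs.

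Valproic acid IC5 libraries held 702, 887 and 1024 normalized reads of TH and valproic acid IC20/100 libraries 612, 801 and 858, both overlapping the controls. The log2 differences were 0.10 ± 0.09 (95% interval -0.07 to 0.28) and -0.09 ± 0.09 (-0.27 to 0.09). At acrylamide IC20/100 TH held 741, 774 and 844, and the log2 difference was -0.05 ± 0.09 (-0.23 to 0.12). None of the 3 passed the test, and these intervals show how large a difference could have been missed among such libraries.

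**Figure D2:**
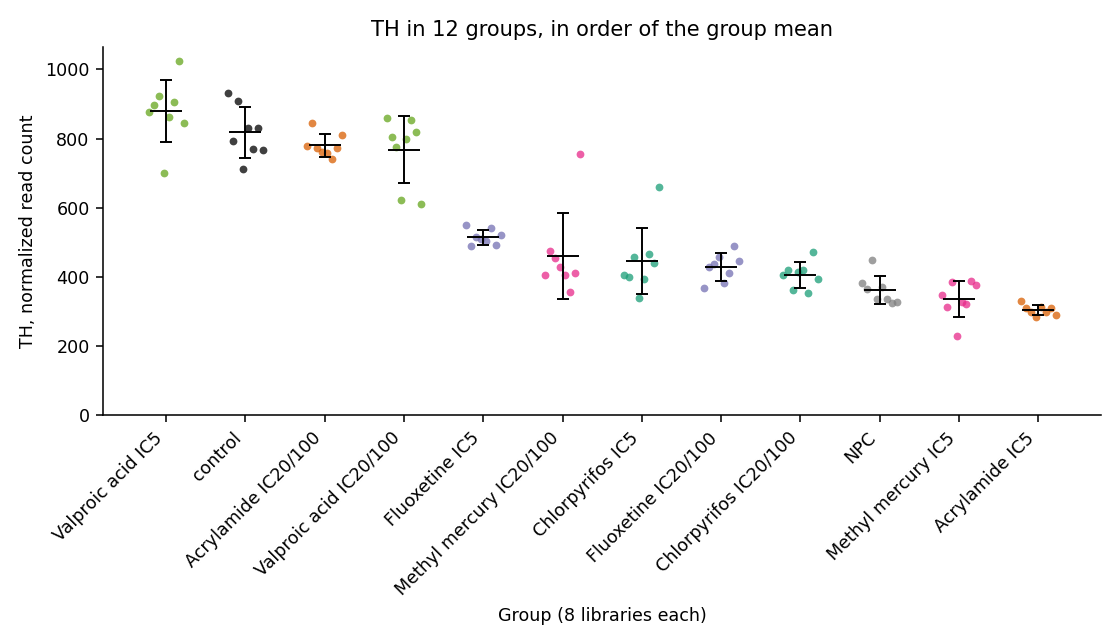
TH normalized read count in each of the 96 libraries (points), by group in order of the group mean, with mean and SD as bars. Control, acrylamide IC20/100 and both valproic acid groups average 768 to 879, and the other 8 groups average 304 to 515.

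Ordered by mean, TH ran from 879 ± 90.1 at valproic acid IC5 through control (818), acrylamide IC20/100 (780.3) and valproic acid IC20/100 (768) to 515 at fluoxetine IC5. Then came methyl mercury IC20/100 (461), chlorpyrifos IC5 (445), fluoxetine IC20/100 (428), chlorpyrifos IC20/100 (405.5), NPC (362), methyl mercury IC5 (337) and acrylamide IC5 (304). Of the 11 pairs of neighbours in this order, 1 differed by a two-sided exact permutation test: valproic acid IC20/100 and fluoxetine IC5 (p = 0.0001554, adjusted p = 0.0017094, exact permutation test). The other 10 pairs did not differ beyond their spread. The group means of TH thus fell into an upper range of 4 groups and a lower range of 8 with this gap between them. No step between neighbours within either range could be resolved. Single libraries crossed the gap: methyl mercury IC20/100 replicate 8 (755) and chlorpyrifos IC5 replicate 8 (660) exceeded the lowest valproic acid IC20/100 library (612). The lower range was not a single level, since fluoxetine IC5 (489 to 550) and acrylamide IC5 (285 to 331) did not overlap. The permutation test held no run term.

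The DBH calls against control went in the opposite direction to those of TH, although the 11 day 10 group means of TH and DBH had only r = -0.18. It was higher than in the controls in 7 of 10 exposed groups and lower in 0 of 10 (limma), with called log2 differences of 1.04 to 2.13. Of the 7 groups with raised DBH, 6 also had lowered TH, and in the remaining group, valproic acid IC5, TH was not called. Methyl mercury IC5 had lowered TH without a DBH call.

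The promoter sequence of DBH is shown because DBH is a described target of homeodomain factors such as PHOX2A, which bind cores of the letters TAAT, and of the cyclic AMP pathway, and the medium held a cyclic AMP analog. That of PHOX2A is shown beside it. Both are the 250 bases before a RefSeq start (GRCh38.p14), 5′ to 3′. Each of these starts lies inside the GENCODE span given above, so the windows do not precede the outermost annotated start. DBH is on the plus strand at chr9:133636113-133636362 and PHOX2A on the minus strand at chr11:72244177-72244426. Capitals mark TAAT (or its reverse complement ATTA) and the cyclic AMP response core TGACG.
DBH: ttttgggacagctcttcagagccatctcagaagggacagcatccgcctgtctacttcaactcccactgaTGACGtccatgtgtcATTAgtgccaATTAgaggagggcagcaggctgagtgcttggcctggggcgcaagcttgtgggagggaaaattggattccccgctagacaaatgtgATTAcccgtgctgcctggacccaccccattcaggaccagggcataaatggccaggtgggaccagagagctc
PHOX2A: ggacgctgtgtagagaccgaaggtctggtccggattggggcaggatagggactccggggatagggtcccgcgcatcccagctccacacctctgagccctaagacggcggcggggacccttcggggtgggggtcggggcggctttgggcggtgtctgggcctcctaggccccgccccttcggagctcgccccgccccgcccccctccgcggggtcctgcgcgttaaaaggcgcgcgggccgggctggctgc
Counted from the start, the DBH window held ATTA at -166, -156 and -71 and TGACG at -181. Searched on both strands, TAAT was present in 47.4% and TGACG in 21.2% of 35116 promoter windows of this length, so neither is rare. The PHOX2A window held neither. A match in letters is a description and not a site of binding. Of the 9 genes, 6 had an entry in the promoter table, and TH, GCH1 and SLC18A1 were those without. Among them, SLC18A2 held the full palindrome TGACGTCA, which contains TGACG on both strands, at -48, as did 1.65% of windows.

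DBH in control held 5.48, 9.86 and 26.7 normalized reads (lowest, median and highest). At valproic acid IC5 it held 33.7, 51.5 and 70.2, above every control library, and the mean was 4.71-fold higher (log2 difference 2.13 ± 0.21, adjusted p = 1.09e-13 in limma). At acrylamide IC5 it held 27.5, 33.3 and 71.2, also with no overlap (1.68 ± 0.21, adjusted p = 2.47e-10 in limma). These were the exposures with the largest DBH differences, and in both the compound was dissolved in medium.

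Chlorpyrifos gave 22.7, 27.3 and 45.9 normalized reads of DBH at IC5 and 21.1, 30.9 and 48.9 at IC20/100. The log2 differences were 1.37 ± 0.21 and 1.44 ± 0.21. Fluoxetine gave 14.8, 20.9 and 57.5 at IC5 (1.04 ± 0.21) and 20.5, 25.1 and 37.9 at IC20/100 (1.22 ± 0.21). Methyl mercury IC20/100 gave 14.8, 27.8 and 44.6 (1.29 ± 0.21). Each of these 5 groups overlapped the controls through control replicate 5 at 26.7, since the other 7 control libraries reached at most 11.7.

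DBH was not called at methyl mercury IC5 (6.59, 8.81 and 14.03, log2 difference -0.07 ± 0.21), acrylamide IC20/100 (0.34 ± 0.21) or valproic acid IC20/100 (0.29 ± 0.21). All DBH levels are low, and their precision is limited by counts of this size. DBH-AS1 held 65.0 ± 9.23 normalized reads in control and was called in 0 of 10 exposures (limma, edgeR and DESeq2), with log2 differences of -0.19 to 0.19 and 0 of 10 at an unadjusted p under 0.05, although limma called it at acrylamide IC5 without replicate 8 of that group.

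**Figure D3:**
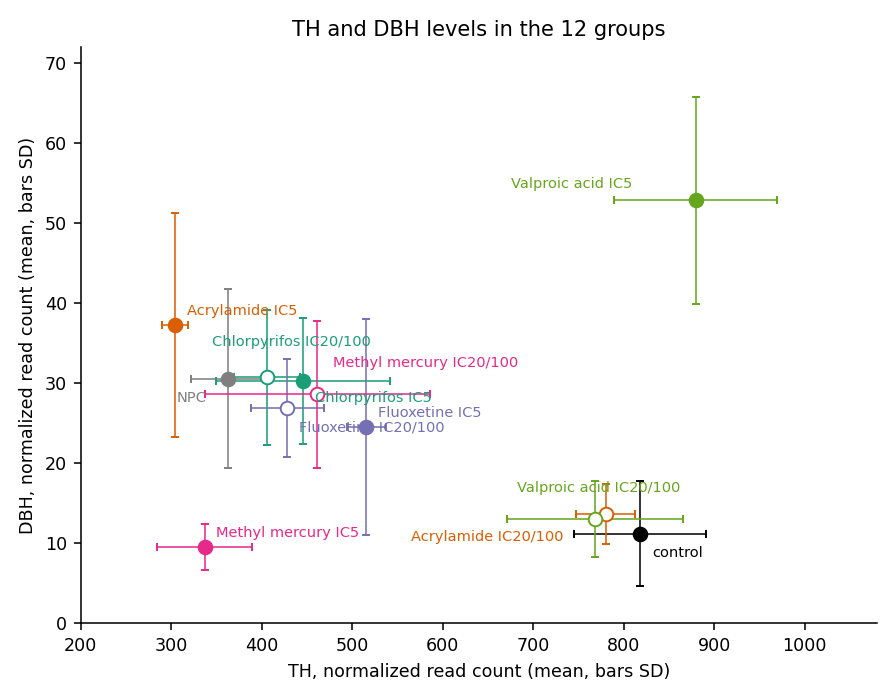
Group means of TH (horizontal) and DBH (vertical) in normalized read counts, with SD bars over 8 libraries; filled points are IC5, NPC or control and open points IC20/100. Valproic acid IC5 combines TH at 879 with DBH at 52.9, methyl mercury IC5 combines TH at 337 with DBH at 9.55, and acrylamide IC20/100 and valproic acid IC20/100 lie next to control.

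PHOX2A, the regulator, was called higher in 2 exposures. At valproic acid IC5 its libraries held 86.9, 105 and 113 normalized reads, beside 33.6, 43.2 and 60.3 in control, with no overlap (log2 difference 1.24 ± 0.15, adjusted p = 4.33e-10 in limma). At acrylamide IC5 they held 50.4, 63.5 and 80.0, overlapping the controls (0.57 ± 0.15, adjusted p = 0.00165 in limma). DBH was thus called in 5 groups in which PHOX2A was not. In those groups the PHOX2A differences ran from -0.34 ± 0.15 at fluoxetine IC5 to 0.30 ± 0.15 at chlorpyrifos IC5.

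DDC was higher at valproic acid IC5, where its libraries held 175 to 242 normalized reads against 88.8 to 151 in control, without overlap. The mean was 1.76-fold higher, at 211 ± 23.1 (log2 difference 0.82 ± 0.12, adjusted p = 6.8e-08 in limma). At methyl mercury IC20/100 DDC held 121, 138 and 315 and was called (0.35 ± 0.12, adjusted p = 0.0336 in limma). That call was lost without replicate 8 (0.22, adjusted p = 0.187 in limma), the library at 315. In the remaining 8 groups DDC was not called, with differences of -0.08 to 0.23, so TH fell in 6 groups in which DDC showed no call in either direction.

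GCH1 was called higher at valproic acid IC5 only, of the 10 exposures. Its libraries held 22.4, 31.6 and 49.8 normalized reads there and 8.40, 15.8 and 19.5 in control, with no overlap (log2 difference 1.10 ± 0.18, adjusted p = 1.13e-06 in limma). The other 9 differences ran from -0.05 to 0.41, and 3 of them had an unadjusted p under 0.05. Without control replicate 7 or acrylamide IC5 replicate 5, GCH1 was also called at acrylamide IC5, and without control replicate 7 at methyl mercury IC20/100. A fit of only the 16 libraries compared called it at fluoxetine IC5 (adjusted p = 0.0334 in limma).

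PTS was lower in 4 exposures, by small amounts. Control libraries held 412, 477 and 522 normalized reads, and valproic acid IC5 libraries 341, 383 and 432 (log2 difference -0.30 ± 0.05). Acrylamide IC5 libraries held 369.5, 403 and 435 (-0.24 ± 0.05) and chlorpyrifos IC5 libraries 341, 406 and 439 (-0.25 ± 0.05), so each group overlapped the controls. The call at fluoxetine IC20/100 (-0.15 ± 0.05, adjusted p = 0.0479 in limma) was lost without the run term or without any of 11 single libraries. QDPR was lower at acrylamide IC5, where it held 370.2, 392 and 451 beside 433, 489 and 566 in control (-0.28 ± 0.07, adjusted p = 0.000563 in limma), with an overlap. Its other 9 differences ran from -0.09 to 0.09.

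The vesicular transporters were near the floor of detection. SLC18A1 averaged 2.85 to 6.63 normalized reads over the 12 groups and passed the filter in neither fit, so it was not tested. SLC18A2 averaged 2.72 in NPC, 7.18 in control and 11.3 at valproic acid IC5. It passed the filter only in the fit of day 10 libraries, where 8 of the 88 libraries had to reach 10, and its call at valproic acid IC5 (0.52 ± 0.19, adjusted p = 0.0322 in limma) was lost without the run term, without the filter and without any of 7 single libraries. PDZD8, which overlaps it, was called in 0 of 10 exposures (limma), with 1 of 10 at an unadjusted p under 0.05.

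**Figure D4:**
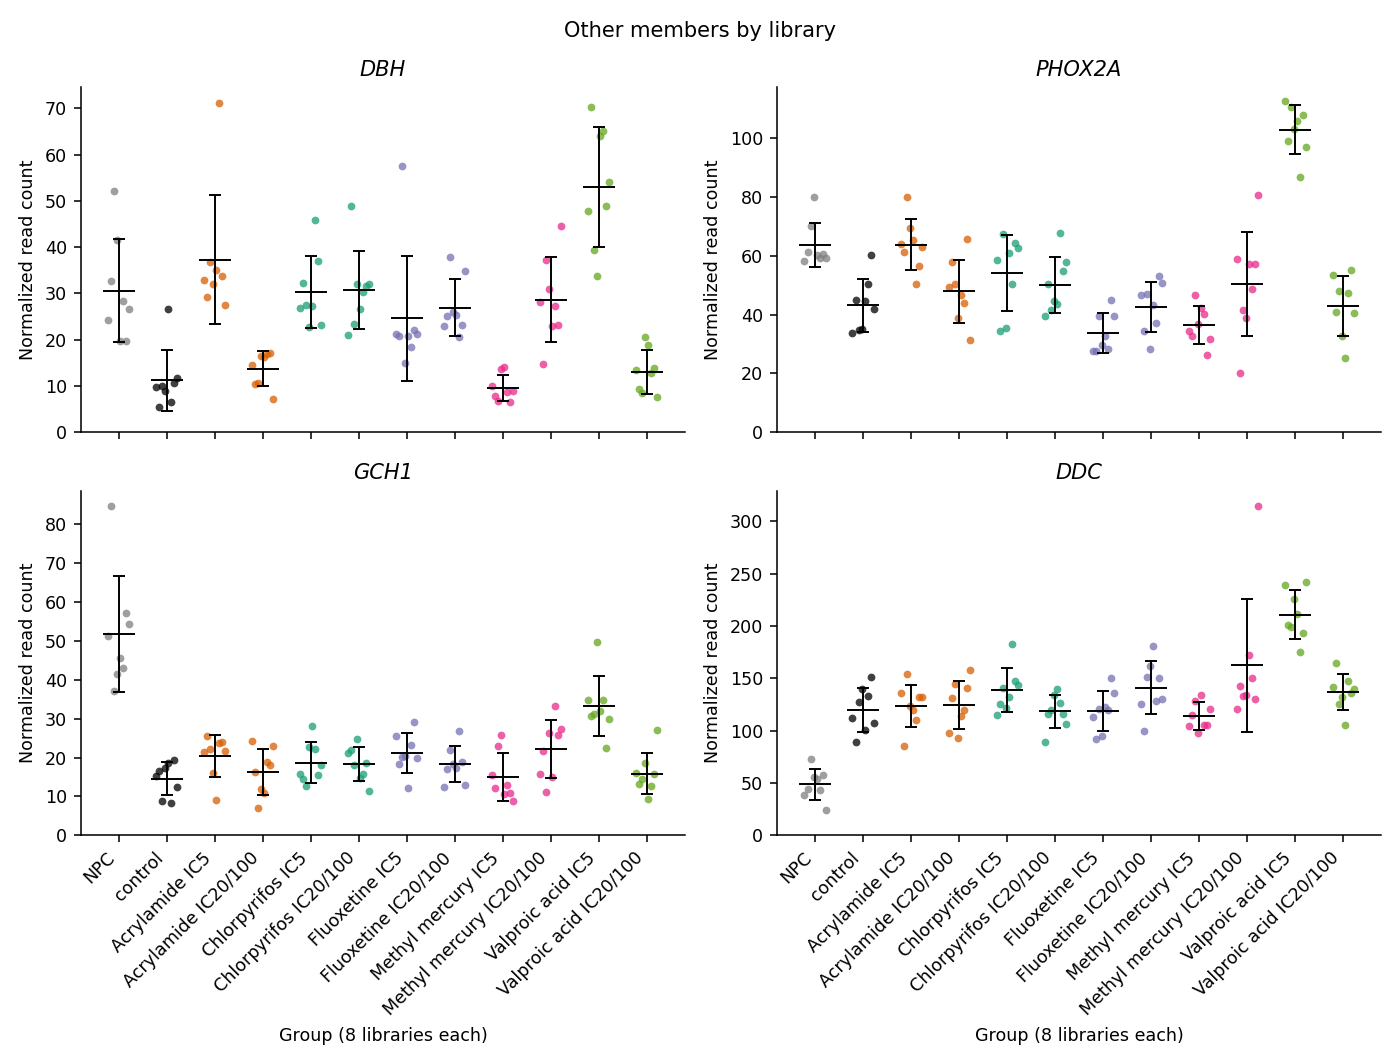
Normalized read counts of DBH, PHOX2A, GCH1 and DDC in every library (points) of the 12 groups, with mean and SD as bars. Valproic acid IC5 is the highest day 10 group for all 4 genes, and NPC is the highest of all groups for GCH1 at 51.9.

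By exposure, 6 of 8 tested members were called at valproic acid IC5, 5 higher and 1 lower, where 26.9% of all genes were called, 14.5% higher and 12.4% lower. The SLC18A2 call is among the 6 but passed the filter partly through libraries of that same group and is not read as support, which leaves 5. With the filter at 50, the count was 3 at valproic acid IC5 and 4 at acrylamide IC5. At acrylamide IC5 5 were called, 2 higher and 3 lower, where 42% of all genes were called, 20.5% higher and 21.5% lower. Chlorpyrifos moved 3 at IC5 and 2 at IC20/100 (19.7% and 14.1% of all genes). Fluoxetine moved 2 at IC5 and 3 at IC20/100 (11.4% and 14.4% of all genes). Methyl mercury moved 1 at IC5 and 3 at IC20/100 (10.9% and 15.8% of all genes). With so few members, such counts do not set the pathway apart from other genes. Acrylamide IC20/100 and valproic acid IC20/100 moved 0 of 8 by limma, edgeR and DESeq2, with 0 at an unadjusted p under 0.05, where 0.0596% and 2.54% of all genes were called.

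**Figure D5:**
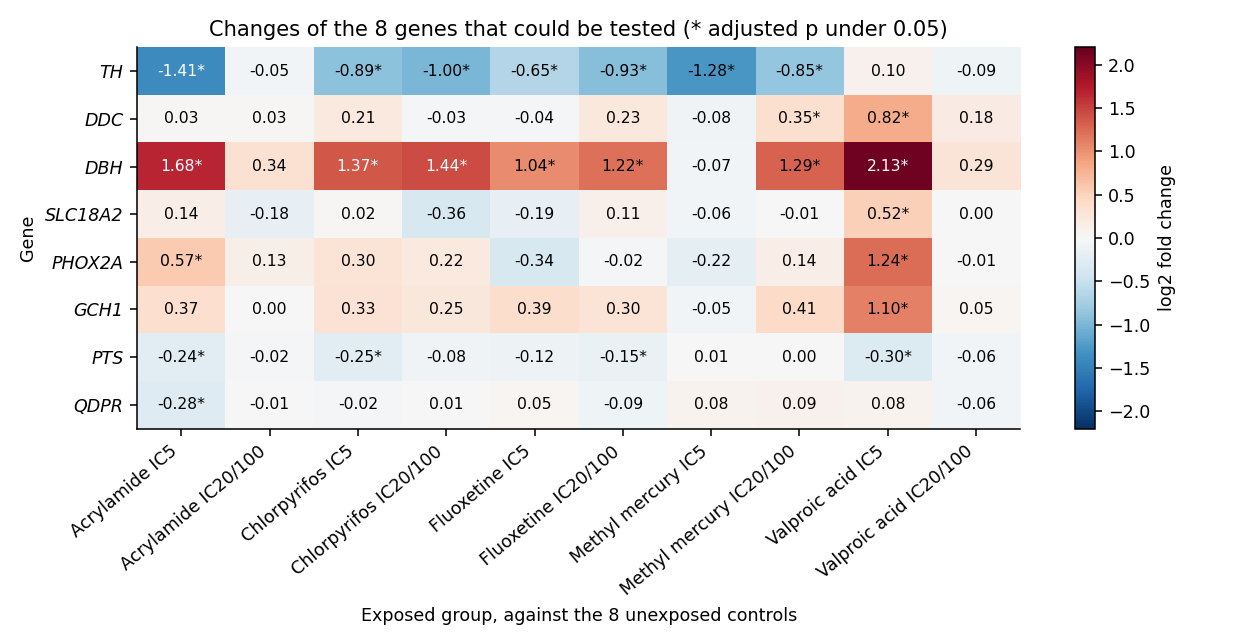
Log2 fold change against the 8 controls of the 8 genes that could be tested (rows) in the 10 exposed groups (columns), in colour and as printed values, with a star for an adjusted p under 0.05. TH is negative and starred in 7 columns, DBH positive and starred in 7, and the columns of acrylamide IC20/100 and valproic acid IC20/100 carry no star.

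The concentrations of a compound were also compared directly. Between acrylamide IC5 and IC20/100, 5 of 8 members differed (41.1% of all genes): TH, PTS and QDPR were lower and DBH and PHOX2A higher at IC5. TH differed by -1.35 ± 0.09 with no overlap, and DBH by 1.34 ± 0.21, again with no overlap. The PHOX2A call (0.44 ± 0.15) was lost without acrylamide IC20/100 replicate 8 (adjusted p = 0.0521 in limma).

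Between valproic acid IC5 and IC20/100, 5 of 8 differed (17% of all genes). DBH, PHOX2A, GCH1 and DDC were higher at IC5, by 1.84 ± 0.21, 1.24 ± 0.15, 1.05 ± 0.18 and 0.64 ± 0.12, and PTS was lower. TH was not called (0.19 ± 0.09, adjusted p = 0.151 in limma).

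Methyl mercury showed the reverse for DBH. Of 8 members 3 differed (5.17% of all genes), and DBH, TH and DDC were all lower at IC5 than at IC20/100. DBH held 6.59 to 14.03 normalized reads at IC5 and 14.8 to 44.6 at IC20/100, without overlap (-1.36 ± 0.21, adjusted p = 3.39e-06 in limma). TH differed by -0.43 ± 0.09 and by -0.33 without IC20/100 replicate 8 (adjusted p = 0.00533 in limma), and a fit of only the 16 libraries compared did not call it (adjusted p = 0.519 in limma). The DDC call was lost without IC20/100 replicate 8 (adjusted p = 0.116 in limma), without IC5 replicate 4 and in the same fit of 16 libraries.

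Chlorpyrifos IC5 and IC20/100 differed in 0 of 8 members by limma, edgeR and DESeq2 (0.0497% of all genes), and 1, PTS, had an unadjusted p under 0.05. Fluoxetine IC5 and IC20/100 differed in 0 of 8 by the same tools (3.76% of all genes), with 3 at an unadjusted p under 0.05. For TH the fluoxetine difference was 0.28 ± 0.09, with a 95% interval of 0.10 to 0.46 (adjusted p = 0.0638 in limma). It was called without fluoxetine IC20/100 replicate 4 or methyl mercury IC20/100 replicate 8. The size of the IC5 to IC20/100 difference varied between compounds for 8 of 8 members (F test in limma, 41.9% of all genes), with the largest F for TH (55.4) and DBH (37.4). The F for SLC18A2 (3.08) was at the threshold (adjusted p = 0.0499 in limma) and was lost in edgeR and DESeq2.

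At IC20/100, the 3 compounds dissolved in DMSO were set against the 2 dissolved in medium. TH was lower by 0.85 ± 0.06 on the log2 scale in the DMSO compounds and DBH higher by 1.00 ± 0.13 (adjusted p = 4.23e-21 and 1.14e-08 in limma), each with the same sign in 6 of 6 runs. These 2 of 8 members were called, where 17.7% of all genes were. Solvent and compound cannot be told apart in this contrast. No such contrast was run at IC5. There, TH averaged 304 and DBH 37.3 with acrylamide, and 879 and 52.9 with valproic acid, both dissolved in medium. The 3 compounds in DMSO averaged 337 to 515 for TH and 9.55 to 30.3 for DBH. The part of the solvent was not tested.

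Genes beyond the 9 gave the setting of these changes. GATA2 was higher in 8 of 10 exposures, from 7.79 ± 4.21 normalized reads in control to 36.4 ± 10.5 at acrylamide IC5 (log2 difference 2.02 ± 0.23). The 7 groups with raised DBH were all among these 8, and methyl mercury IC5 was the other (0.85 ± 0.23). A fit of only the 16 libraries compared did not call GATA2 at either methyl mercury concentration (adjusted p = 0.0808 and 0.0504 in limma).

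SLC6A2, the noradrenaline transporter, rose from 11.3 ± 8.22 normalized reads in control to 60.9 ± 17.5 at acrylamide IC5 (2.30 ± 0.28) and was called in 6 of 10 exposures. Its call at chlorpyrifos IC5 (0.80 ± 0.28) and at methyl mercury IC20/100 (0.86 ± 0.28) were lost in edgeR and DESeq2. SLC7A5, which carries tyrosine and other large neutral amino acids into cells, fell in 9 of 10 exposures, by 0.49 ± 0.11 to 2.12 ± 0.11.

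NR4A2 was called in 0 of 10 exposures (limma, edgeR and DESeq2), with differences of -0.02 to 0.35 and 1 of 10 at an unadjusted p under 0.05. At acrylamide IC5 the cyclic AMP, activity and hypoxia list had 4 genes higher and 5 lower of 18, near the 42% of all genes called there, led by EGR1 (1.70 ± 0.10) and EGLN3 (-1.60 ± 0.17).

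Tetrahydrobiopterin partners were called higher in 4 of 7 at acrylamide IC5, among them PCBD2 (0.90 ± 0.25) and SPR (0.78 ± 0.15), where 20.5% of all genes were higher and 42% called in either direction, and the list's median was 0.31 beside -0.01 over all genes. PHOX2A and DBH rose and TH, PTS and QDPR fell in the same group. MAOA fell there (-0.88 ± 0.23).

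Markers of other cells moved too. The summed pan-neuronal markers (8 genes) ran from 55784 to 59306 normalized reads at acrylamide IC5 and from 52142 to 57478 at methyl mercury IC5, beside 58597 to 65540 in control, with 4 and 5 of 8 genes called lower, where 21.5% of all genes were lower at acrylamide IC5 and 10.9% were called in either direction at methyl mercury IC5. At acrylamide IC5 ELAVL3 was called higher (0.12 ± 0.05) and MAP2 was not called (0.07 ± 0.05). In chlorpyrifos IC20/100, where TH fell by 1.001 on the log2 scale, the sum ran from 58778 to 62198, within the range of the controls. Of 6 neural crest and Schwann markers, 2 to 4 were called lower in each of the 7 groups with lowered TH, and 4 at valproic acid IC5, where TH was not called. Their part in the TH result was not tested. PNMT, which makes adrenaline, averaged at most 13.0 in any group. The chromaffin and granule markers were mixed. In control, CHGA, CHGB, SCG2 and SCG3 averaged 567, 747, 472 and 1264 normalized reads, while PENK averaged 2.34. NPY, a marker of sympathetic cells, averaged under 1 in every group.

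Over the 11 day 10 group means, EPHA8 had the pattern most like TH (Pearson r = 0.96) among 12507 protein-coding genes with a mean of at least 50. EPHA8 held 161 normalized reads in control and 54.3 at acrylamide IC5. PITPNM3, TPPP3, VCAM1, DPP6, VWA5A, SCG2 and ABCA5 followed, all with r from 0.95 to 0.96. NOL8, GLE1, SLC49A4 and DDX5 ran most opposite to TH, with r of -0.96 to -0.94. These values describe 11 points that share runs and a normalization and were picked from all genes compared.

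Among the members themselves, TH and DBH had r = -0.18 over the same 11 means. DBH went with GCH1 (r = 0.87) and PHOX2A (0.72), and DDC with GCH1 (0.82), while DBH and PTS ran opposite (-0.78). Valproic acid IC5 was the highest of the 11 points for DDC, DBH, PHOX2A and GCH1 and the lowest for PTS. The TH pattern was thus not shared by any other member, with r between -0.39 and 0.41 for TH against each of the other 8.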

How the data were processed

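Messenger RNA of 96 libraries was measured with a strand-keeping poly(A) kit, per the labels' protocols. Per the submitters' processing notes, Salmon 1.3.0, DESeq2 1.30.0, bcl2fastq, FastQC 0.11.8, MultiQC 1.0 and GRCh38 were used. For the annotation release and for strand use in counting, nothing is given in the sources used here. Deposited values are a signal: read counts divided by 1 size factor per library. Whole reads were recovered for 100.0% of values (tolerance 0.001 reads), so libraries were 9.49 M to 29.6 M reads deep. Of 58434 identifiers, 58171 matched GENCODE 29.

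Differences were tested with limma 3.58.1 (R 4.3.3) on log2(value + 2), with group and run as terms, keeping genes that reached 10 in 8 or more libraries, and Benjamini-Hochberg adjustment over all of them at 0.05. Differentiation used 16 libraries (18063 genes) and the exposures 88 (20136 genes). A fold change on this scale understates the change of low genes. The procedure was tested on simulated data. The alternatives were pseudocounts, filters, scaling, the run term, a replicate block, the libraries fitted, each library left out, and the count tests edgeR 4.0.16 and DESeq2 1.42.0 on recovered reads. No pair of libraries of 1 group agreed within sampling noise (lowest chi-square per degree of freedom 16.6 over 336 pairs).

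The members and the 14 lists of related genes were chosen with earlier results of these data known. Named genes are the members, the called genes with the largest change of each list described (up to 3 for differentiation, 2 for an exposure), and some genes fixed by name (NR4A2, SPR, MAOA and MAOB among them). Some genes that this rule covers are not reported here. For genes like TH, the 8 highest and 4 lowest correlations are named. Marker genes and sums are given where they bear on a result.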

Additional observations from a re-analysis of the deposited data

Results flagged for a closer look

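In 16 of 108 combinations of gene and group, the highest of the 8 libraries stood apart from the rest by Dixon's criterion, which flags about 1 in 20 groups by chance. Methyl mercury IC20/100 replicate 8 did so for TH at 755 normalized reads (the other 7 libraries 355 to 474), DDC at 315 (121 to 172), PTS at 691 (396 to 524) and QDPR at 741 (448 to 541). Its deposited values also summed to the highest total of all libraries, 20.95 M, beside 20.2 M in the next.

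For TH, NPC replicate 3 stood apart at 449 (the others 325 to 382) and chlorpyrifos IC5 replicate 8 at 660 (339 to 467). For DBH, control replicate 5 did at 26.7, acrylamide IC5 replicate 6 at 71.2, chlorpyrifos IC20/100 replicate 2 at 48.9 and fluoxetine IC5 replicate 3 at 57.5. For GCH1, NPC replicate 2 did at 84.8 and valproic acid IC5 replicate 4 at 49.8. The transporters gave the rest, SLC18A1 with 12.1 at chlorpyrifos IC20/100 replicate 3, 7.39 at methyl mercury IC5 replicate 4 and 17.6 at methyl mercury IC20/100 replicate 6, and SLC18A2 with 9.40 at chlorpyrifos IC20/100 replicate 6.

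The IC5 minus IC20/100 difference varied between the 5 compounds by limma's F test, with F of 55.4 for TH, 37.4 for DBH, 18.5 for PHOX2A, 12.0 for DDC, 9.12 for GCH1, 5.92 for PTS, 5.70 for QDPR and 3.08 for SLC18A2.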

How the results depend on the processing

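No result reversed under the alternatives run. Counts of members kept within 1.5 times of their value in 170 of 179 recomputations, TH differences kept their call in 176 of 179 and those of the other members in 1152 of 1170. A filter at 50 left 5 of 8 members to test, and counts called became 1 at chlorpyrifos IC20/100, 1 at fluoxetine IC5, 3 at valproic acid IC5, 3 between the valproic acid concentrations, 1 for DMSO against medium and 5 for the F test. Between the fluoxetine concentrations, TH was called, as the 1 member, with a replicate block (0.28, adjusted p = 0.0444 in limma) and with only the groups compared (0.28, adjusted p = 0.0441 in limma); leaving out single libraries gave 0 to 1 members called and TH differences of 0.25 to 0.31. Between the methyl mercury concentrations, only the groups compared gave 1 member called and TH at -0.42 (adjusted p = 0.519 in limma). With reads scaled to library totals, 2 neighbour pairs in the order of TH differed instead of 1. Replicate numbers were not taken to pair the libraries, since not every same-numbered pair correlated over 0.1, and the block changed no other count of members or TH call. For chlorpyrifos IC5 and control the same number meant the same run. There 7 of 8 libraries correlated best with their own number (median r = 0.10, run kept). The causes were not tested. Depth limits DBH, GCH1 and the transporters most.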
